A study of Mus musculus with 188 samples.

Results

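Transcripts of the aryl hydrocarbon receptor (AhR) and of 5 genes tied to it were followed in mouse organotypic brain slice cultures (BSCs), which are thin coronal brain sections kept alive on a membrane insert. The 6 genes were the receptor itself (Ahr), its DNA-binding partner (Arnt), its repressor (Ahrr) and 3 transcripts that the receptor is known to induce (Cyp1a1, Cyp1b1 and Tiparp). They were chosen by symbol, not by level, and each was found as 1 row in every count file, so that they were 6 of the 25472 genes listed for all 188 libraries. All slices came from C57BL/6J mice, male and female and 6 to 8 weeks old by the study's methods, and were exposed from day 7 of culture. The libraries were bulk poly(A) mRNA of whole slices, and 167 of them carried labels that put them in 1 of 18 groups. In bulk tissue, fewer cells of a type and less RNA per cell cannot be told apart.

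In batch 1, all exposures lasted 24 h. It held 10 control libraries without added toxin, 10 libraries each with heme-albumin at 12.5, 50, 200 and 400 µM (heme on albumin, its low-affinity carrier), and 10 with hemeHpx at 200 µM (heme bound to hemopexin, its high-affinity plasma scavenger). In batches 2 and 3, exposures lasted 24 or 48 h. Controls numbered 10 at 24 h and 9 at 48 h. Hemoglobin (Hb) at 200 and 400 µM had 10 libraries per dose and time. Its complex with haptoglobin (HbHp), the plasma protein that binds Hb, had 8 libraries at 200 µM at either time, and at 400 µM 4 at 24 h and 5 at 48 h. Hp alone at 400 µM had 12 libraries at 24 h and 11 at 48 h. Hb and Hp were human proteins. In the titles the hemeHpx group is called heme-haptoglobin, whereas the treatment tag, the library names and the study's methods give hemopexin, which was followed here. The labels do not tie libraries to single animals or inserts, so p-values measure the spread between libraries, part of which may be technical.

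AhR is a ligand-activated transcription factor of the bHLH-PAS family, known as the sensor of dioxins and of indole and tryptophan metabolites. Without ligand it is held in the cytosol by a chaperone complex; with ligand it enters the nucleus, pairs with ARNT and binds xenobiotic response elements with the core GCGTG. Its best known targets are the cytochrome P450 genes Cyp1a1 and Cyp1b1 and 2 genes whose products restrain it: AHRR competes for ARNT, and TIPARP is a mono-ADP-ribosyltransferase that promotes the loss of the receptor. In brain, AhR is studied mostly in microglia, astrocytes and vessels, and heme breakdown products such as bilirubin are among its known endogenous ligands.

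The motif through which the receptor acts is shown for the members whose start sites were at hand. GCGTG, read on either strand (CACGC on the opposite one), was searched in the 250 bases before the RefSeq start of each gene (GRCm38.p6); Ahr had no entry. Ahrr held 3 cores and the other 4 genes 1 each, where 28.2% of 32851 mouse promoters held at least 1 and 2.77% held 3 or more. The cores are in capitals, 12 bases are given on either side, each line is written 5′ to 3′ in the direction of the gene, and a match is a description of letters, not evidence of binding.
Arnt, chr3:95434349-95434377, plus strand: ccatagtttgggGCGTGtcttctgcccag
Ahrr, core farthest from the start, chr13:74292422-74292450, minus strand: tattgaaagggcGCGTGgcaggcagggac
Ahrr, middle core, chr13:74292397-74292425, minus strand: ggacaaggatgtGCGTGcgccctctgccg
Ahrr, core nearest the start, chr13:74292342-74292370, minus strand: gcggggcggctcGCGTGctggggtggggc
Cyp1a1, chr9:57697547-57697575, plus strand: tcagataaggagGCGTGgccaacagacac
Cyp1b1, chr17:79715121-79715149, minus strand: cgtcccgcccctCACGCcccaccccctaa
Tiparp, chr3:65528265-65528293, plus strand: ctccgtccggagCACGCgcacgggaggcg

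Library totals ran from 11038484 to 54174784 counts, and levels are given in CPM, the count of a gene scaled to its library's TMM-normalised size. A member was called changed at a Benjamini-Hochberg adjusted p under 0.05 in edgeR's quasi-likelihood F test over all genes that passed a filter on low counts (15554 in batch 1, 16473 in batches 2 and 3). Fold changes are log2 values with their standard error (SE). Before the results, 2 features of batches 2 and 3 must be given. Library names there start with E1 or E2, a code the labels do not explain. Between these prefixes 68% of genes were called, among them Ahr (-0.28 ± 0.10, E2 against E1), Ahrr (-0.36 ± 0.08) and Tiparp (-0.24 ± 0.03), and all 25 HbHp libraries carried E2 while 14 of the 19 controls carried E1. Between batches 3 and 2, 17.2% of genes were called and no member. All 25 HbHp libraries were also of batch 3, where 1 control per time carried E2. Prefix and batch were therefore terms of the fit, so the values of HbHp rest on terms estimated also from other groups, the libraries labelled Hp among them. Fitted fold changes of HbHp are larger than the ratio of mean CPM where E2 libraries run lower. The libraries labelled Hp stood apart by prefix: Nqo1, an antioxidant enzyme that is also an AhR target, lay at 22.4 to 34.1 CPM in the 6 E1 and at 9.55 to 14.2 CPM in the 6 E2 libraries at 24 h. Title, treatment tag and library name all call these libraries haptoglobin alone, and whether each carries the right label was not tested, so values for Hp are those of the libraries labelled Hp. They are described on their own, and calls of members against control that changed when they were left out of the fit are given both ways.

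Per kilobase of exon in batch 1 controls, the levels of the 6 genes spanned 3 orders of magnitude. Cyp1b1, a P450 that oxidizes steroids and polycyclic hydrocarbons, was highest at 81.7 CPM per kb, followed by Tiparp at 12.7, Arnt at 7.66, Ahr at 4.71, Ahrr at 0.26 and Cyp1a1 at 0.067. The order was the same in the 24 h and 48 h controls of batches 2 and 3.

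The receptor and its partner were not called in any comparison with control. Ahr lay at 29.1 ± 8.21 CPM (SD, n = 10) in batch 1 controls, with the lowest library at 15.0, the median at 30.9 and the highest at 39.7. It lay at 33.2 ± 4.13 CPM with heme-albumin 200 µM and at 26.4 ± 8.48 CPM with hemeHpx. These groups overlapped. In batches 2 and 3 the controls held 13.8 ± 3.20 CPM (n = 10) at 24 h and 17.8 ± 6.34 CPM (n = 9) at 48 h, and no treated group had a mean above 19.8 CPM. Over the 15 comparisons with control, Ahr ranged from -0.13 to 0.29 and Arnt from -0.05 to 0.14. The intervals for Arnt were narrow: with heme-albumin 400 µM its difference was 0.04 with a 95% interval from -0.04 to 0.11, at 62.9 ± 3.74 CPM against 61.4 ± 2.81 CPM. For Ahr the interval at that dose ran from -0.12 to 0.57, wide enough to hold no change as well as a moderate rise.

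**Figure D1:**
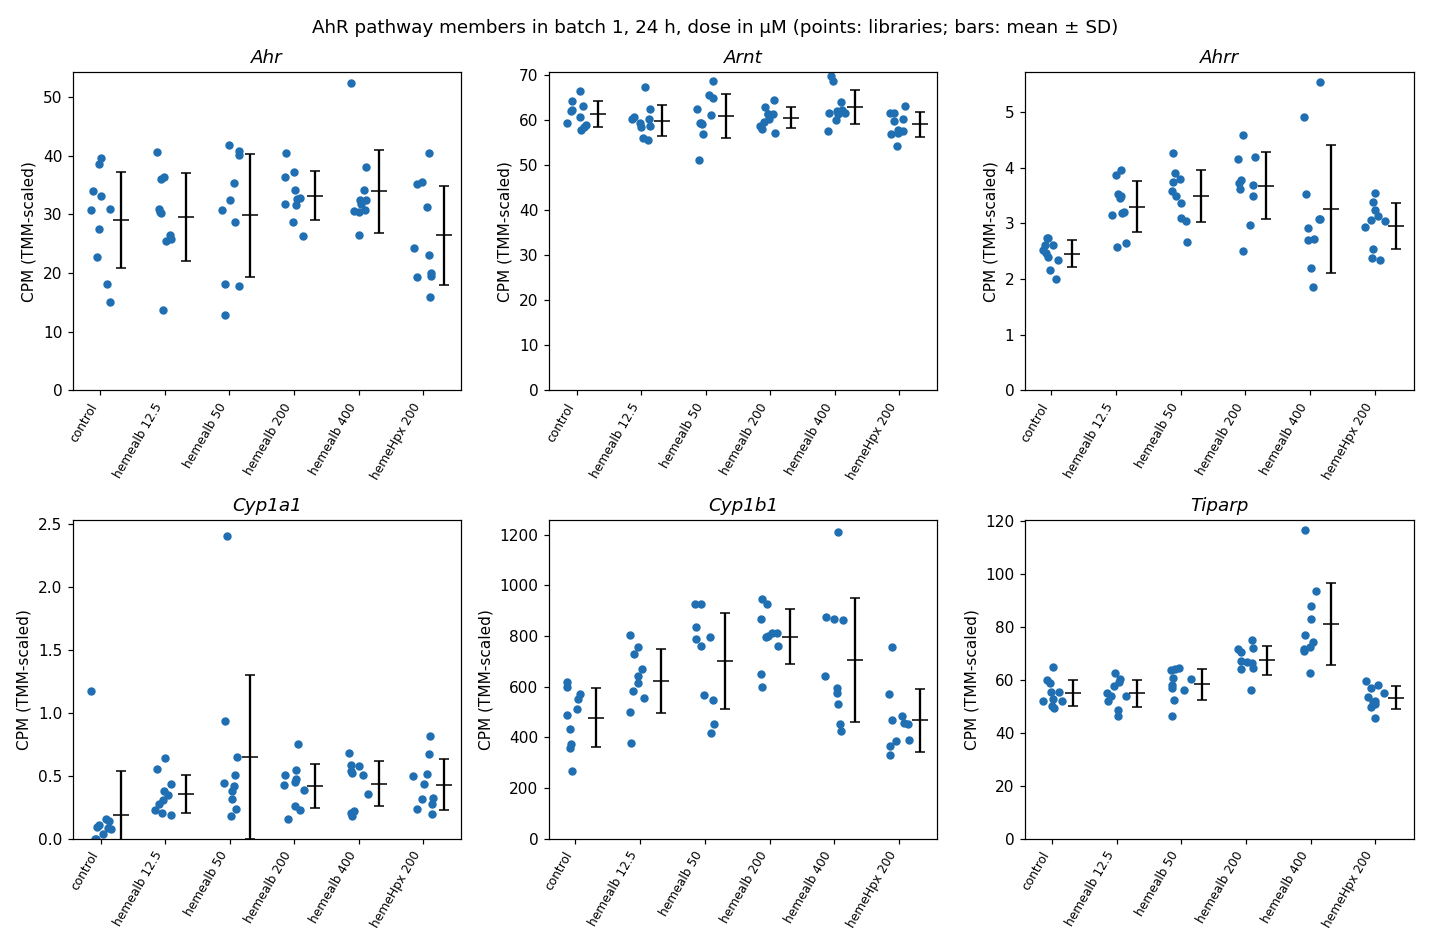
CPM of the 6 genes in the 60 libraries of batch 1 by group (x axis, dose in µM, all 24 h); points are libraries and bars the mean ± SD, cut at 0. Ahr and Arnt overlapped across all groups, Cyp1b1 was highest with heme-albumin 200 µM (797 CPM on average) and Tiparp with 400 µM (81.1 CPM), and the hemeHpx group lay at the level of the controls for both.

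Heme-albumin raised all 4 target genes at 200 and 400 µM. At 200 µM, where 13.6% of all genes were called, 6.98% as higher, Ahrr rose by 0.57 ± 0.13 (adjusted p = 0.00105), Cyp1a1 by 1.37 ± 0.48 (adjusted p = 0.0461, near the threshold), Cyp1b1 by 0.74 ± 0.16 (adjusted p = 0.000985) and Tiparp by 0.29 ± 0.07 (adjusted p = 0.00301). At 400 µM, where 29% of genes were called, 14.7% as higher, the rises were 0.40 ± 0.13 for Ahrr (adjusted p = 0.0117), 1.44 ± 0.47 for Cyp1a1 (adjusted p = 0.0165), 0.56 ± 0.16 for Cyp1b1 (adjusted p = 0.00609) and 0.56 ± 0.07 for Tiparp (adjusted p = 8.06e-09). At 50 µM (0.463% of genes called), Ahrr rose by 0.50 ± 0.13 (adjusted p = 0.044) and Cyp1a1 by 2.05 ± 0.45 (adjusted p = 0.0105). At 12.5 µM (0.045% called) no member was called, with Ahrr at 0.42 ± 0.13 and Cyp1a1 at 1.17 ± 0.48.

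Tiparp rose with dose at the upper end. Its lowest, median and highest values were 49.5, 53.99 and 64.9 CPM in controls, 56.04, 66.99 and 75.2 CPM at 200 µM and 62.8, 75.7 and 116.9 CPM at 400 µM. At 400 µM, 9 of 10 libraries lay above the highest control. Of the 2 steps between doses that were tested, that from 200 to 400 µM called Tiparp and no other member (0.27 ± 0.07, adjusted p = 0.0358, 1.27% of genes called), and that from 50 to 200 µM called no member (0.797% of genes).

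Ahrr and Cyp1b1 did not follow the dose in that way. Ahrr, whose protein is the feedback inhibitor of the receptor, spanned 2.00 to 2.74 CPM in controls, 2.67 to 4.26 CPM at 50 µM, 2.50 to 4.59 CPM at 200 µM and 1.85 to 5.54 CPM at 400 µM. Above the highest control lay 9 of 10 libraries at 50 µM and at 200 µM, and 6 of 10 at 400 µM. Cyp1b1 spanned 267 to 618 CPM in controls (median 501), 598 to 945 CPM at 200 µM (median 806) and 424 to 1210 CPM at 400 µM (median 618). From 200 to 400 µM the difference was -0.17 ± 0.12 for Ahrr and -0.18 ± 0.16 for Cyp1b1, neither of them called. Without control replicate 5, or without the heme-albumin 50 µM library with the highest Cyp1a1 count, Ahrr at 50 µM was no longer called (adjusted p = 0.0916 and 0.0903).

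Cyp1a1, the classical readout of AhR activity, was scarcely detected in this tissue. The 10 controls of batch 1 held 0 to 13 counts with a median of 2, and 9 of them held 3 or fewer. Heme-albumin libraries held 3 to 14 counts at 200 µM, 3 to 17 at 400 µM and 3 to 74 at 50 µM, and hemeHpx libraries 5 to 17. Since control replicate 5 (13 counts, 1.17 CPM) lay above every other control, no 200 or 400 µM library exceeded it. Without that library the rise was 2.31 at 200 µM, 2.39 at 400 µM and 2.997 at 50 µM. Without the 50 µM library with 74 counts the rise at 50 µM was 1.504 and no longer called (adjusted p = 0.131). The gene passed the filter of batch 1 through treated libraries: 22 of 60 reached the required 0.453 CPM, of which 1 was a control. Without the filter, the call at 200 µM was lost (1.37, adjusted p = 0.0565), where the other alternatives gave an adjusted p from 0.000495 to 0.0466.

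Hemopexin in place of albumin as the carrier of 200 µM heme left Cyp1b1 and Tiparp lower. Cyp1b1 was 467 ± 123 CPM with hemeHpx and 797 ± 109 CPM with heme-albumin (n = 10 each), a difference of -0.77 ± 0.16 (adjusted p = 0.00057). Tiparp was 53.3 ± 4.20 against 67.5 ± 5.39 CPM, a difference of -0.34 ± 0.07 (adjusted p = 0.00052), in a comparison that called 25.9% of all genes, 12.9% as lower. Against control these genes differed by -0.03 (95% interval -0.35 to 0.28) and -0.05 (-0.19 to 0.09). Ahrr was 2.96 ± 0.41 CPM with hemeHpx and was lower by -0.31 ± 0.12 than with heme-albumin, which missed the threshold (adjusted p = 0.0515). The alternatives gave an adjusted p from 0.0174 to 0.0587, and it was called with DESeq2 (0.0466), with the replicate block (0.0442) and in the fit of these 3 groups alone (30 libraries, 0.0174). Cyp1a1 did not separate the carriers: the difference was 0.00, with an interval from -0.73 to 0.72. Against control Cyp1a1 was 1.36 ± 0.47 with hemeHpx (adjusted p = 0.0544, 8.2% of genes called), and without control replicate 5 it was 2.31 (adjusted p = 0.0069) and called.

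Median marker sums of microglia and of several other cell types differed between these groups, with ranges that overlapped. For microglia, the summed level over 6 genes was 307 to 1059 CPM in controls (median 517), 209 to 485 CPM with heme-albumin 200 µM (median 357) and 333 to 837 CPM with hemeHpx (median 607), with none of the 6 at a median of 0. With heme-albumin, 5 of the 6 were called lower at 200 µM, where 6.6% of all genes were, and 3 at 400 µM, where 14.3% were. With hemeHpx, 5 were higher than with heme-albumin (13% of all genes). Of 6 astrocyte markers, 3 were lower at 200 µM and 4 at 400 µM, against the same shares. Fibroblast sums had medians of 628 CPM in controls, 403 with heme-albumin 200 µM and 649 with hemeHpx. In the same order, medians were 486, 404 and 536 CPM for mural cells and 127, 106 and 133 CPM for endothelial cells. Those of neurons were 316, 307 and 308 CPM. The part of these markers in the values of the 4 targets was not tested.

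**Figure D2:**
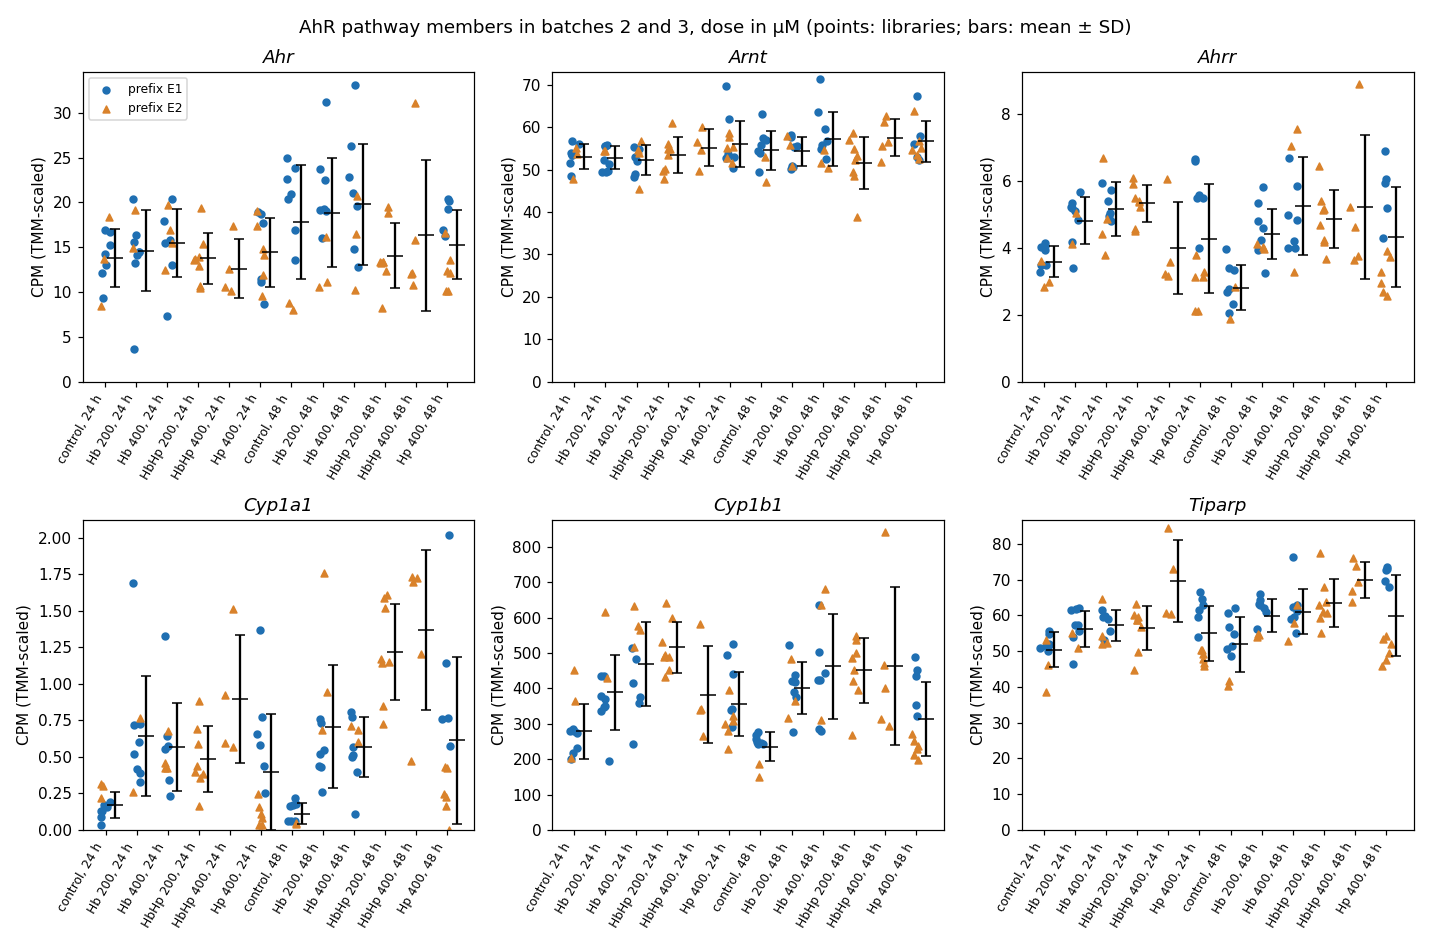
CPM of the 6 genes in the labelled libraries of batches 2 and 3 by group (x axis, dose in µM and time); colours give the library-name prefix, points are libraries and bars the mean ± SD, cut at 0. Cyp1a1 and Tiparp were highest with HbHp 400 µM at 48 h (1.37 and 70.04 CPM on average), Arnt was level, and the Hp libraries divided by prefix in Ahrr, Cyp1a1 and Tiparp.

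Cell-free Hb raised Ahrr, Cyp1a1 and Cyp1b1 at 400 µM by 24 h and at both doses by 48 h. At 24 h and 200 µM no member passed (0.0971% of genes called). Cyp1a1 stood at 1.75 ± 0.41 (adjusted p = 0.0512) there and was called once the Hp libraries were left out of the fit (1.92, adjusted p = 0.00033). At 24 h and 400 µM (0.522% called), Ahrr rose by 0.56 ± 0.15 (adjusted p = 0.0463), Cyp1a1 by 1.70 ± 0.41 (adjusted p = 0.0211) and Cyp1b1 by 0.75 ± 0.17 (adjusted p = 0.0127). At 48 h and 200 µM (0.31% called), Ahrr rose by 0.70 ± 0.15 (adjusted p = 0.00887), Cyp1a1 by 2.72 ± 0.45 (adjusted p = 5.39e-05) and Cyp1b1 by 0.77 ± 0.18 (adjusted p = 0.0215). At 48 h and 400 µM (0.601% called), all 4 targets rose: Ahrr by 0.96 ± 0.15, Cyp1a1 by 2.37 ± 0.45, Cyp1b1 by 0.98 ± 0.18 and Tiparp by 0.26 ± 0.06 (adjusted p = 1.61e-05, 0.00048, 0.000293 and 0.0161). Within batch 2 alone, with 8 libraries per Hb group, Cyp1a1 was called in all 4 comparisons (1.63 and 1.83 at 24 h, 2.26 and 2.16 at 48 h, for 200 and 400 µM). There Ahrr was called at 48 h (0.82 and 0.92) and Cyp1b1 at 48 h and 400 µM (0.80), whereas at 24 h and 400 µM Ahrr and Cyp1b1 missed the threshold at 0.48 and 0.59 (adjusted p = 0.149 and 0.151), as did Tiparp at 48 h (0.22, adjusted p = 0.0984). Batch 3 held at most 2 libraries per Hb group and called no member. Within prefix E2 alone no member was called at 24 h, with Cyp1a1 at 0.84 and 0.82 for 200 and 400 µM. At 48 h Cyp1a1 was called at both doses there (4.56 and 3.805), and Cyp1b1 at 400 µM (1.71). Ahrr missed the threshold at 0.81 and 1.37 (adjusted p = 0.911 and 0.0526), as did Cyp1b1 at 200 µM (1.22, adjusted p = 0.462).

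In single libraries, Cyp1a1 counts were 1 to 16 in 24 h controls and 1 to 11 in 48 h controls. With Hb 200 µM they were 12 to 42 at 24 h and 13 to 80 at 48 h, and with 400 µM 6 to 64 and 3 to 36. At 48 h every library with Hb 200 µM lay above every control in CPM for Cyp1a1 (0.26 CPM and above against 0.222 CPM and below) and for Cyp1b1 (276.4 against 276.1 CPM at the boundary), a separation met by 0.0728% of all genes. With Hb 400 µM at 48 h the same held for Cyp1b1 (280 CPM and above, 0.0607% of genes), whereas 9 of 10 libraries did so for Cyp1a1. As in batch 1, Cyp1a1 passed the filter through treated libraries, with 1 of the 19 controls above the required 0.307 CPM.

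HbHp complexes raised all 4 targets at 48 h at both doses. At 200 µM (11.9% of genes called, 7.04% as higher), Ahrr rose by 0.97 ± 0.19 (adjusted p = 0.000146), Cyp1a1 by 3.75 ± 0.55 (adjusted p = 4.57e-07), Cyp1b1 by 1.002 ± 0.22 (adjusted p = 0.00113) and Tiparp by 0.56 ± 0.08 (adjusted p = 8.11e-08). At 400 µM (11.9% called, 7.39% as higher), the rises were 1.08 ± 0.21 (adjusted p = 8.77e-05), 3.92 ± 0.58 (adjusted p = 3.29e-07), 1.04 ± 0.24 (adjusted p = 0.00146) and 0.70 ± 0.08 (adjusted p = 6.55e-10). Leaving out the Hp libraries kept all 4 called at both doses, with smaller rises. At 200 and 400 µM these were 0.81 and 0.91 for Ahrr and 3.21 and 3.37 for Cyp1a1. For Cyp1b1 they were 0.80 and 0.83, and for Tiparp 0.50 and 0.64. Within prefix E2 alone, where 2 controls remained at 48 h, all 4 were called at both doses, with Cyp1a1 at 4.73 and 4.89 and Tiparp at 0.70 and 0.83. Batch 3 alone held 1 control of each prefix at 48 h. Within it Cyp1a1, Cyp1b1 and Tiparp were called at both doses, and Ahrr missed the threshold at 0.86 and 0.95 (adjusted p = 0.0959 and 0.0567).

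The 5 libraries with HbHp 400 µM at 48 h held 37, 13, 54, 43 and 32 Cyp1a1 counts, or 1.73, 0.474, 1.73, 1.70 and 1.20 CPM, where the highest control held 0.222 CPM. Their Tiparp levels were 63.9, 76.1, 73.97, 69.4 and 66.9 CPM, above the highest control at 62.1 CPM. Every library lay above the controls for both genes and for Cyp1b1, a separation met by 3.1% of all genes. Cyp1b1 varied among them, at 403, 842, 293, 314 and 468 CPM, and replicate 2, with the highest Cyp1b1, had the lowest Cyp1a1. The 8 libraries with 200 µM held 23 to 46 Cyp1a1 counts (0.727 to 1.61 CPM), again above every control (1.15% of genes).

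At 24 h the calls for HbHp differed by gene. At 400 µM (5.15% called, 3.1% as higher), Cyp1a1 rose by 2.63 ± 0.57 (adjusted p = 0.00147) and Tiparp by 0.71 ± 0.09 (adjusted p = 4.00e-09). The 4 libraries held 15, 38, 26 and 16 Cyp1a1 counts and 84.4, 73.1, 60.7 and 60.4 CPM of Tiparp, above all controls for both (1.93% of genes). Ahrr stood at 0.29 ± 0.22 and Cyp1b1 at 0.51 ± 0.25, neither called. At 200 µM (1.93% called), Ahrr rose by 0.70 ± 0.19 (adjusted p = 0.0233), Cyp1b1 by 0.95 ± 0.22 (adjusted p = 0.00679) and Tiparp by 0.41 ± 0.08 (adjusted p = 0.000263), and all 8 libraries lay above the controls for Ahrr (0.425% of genes), while Cyp1a1 stood at 1.76 ± 0.52 (adjusted p = 0.0516). Leaving out the Hp libraries lowered these to 0.55 for Ahrr (adjusted p = 0.119), 0.79 for Cyp1b1 (adjusted p = 0.0412) and 0.34 for Tiparp (adjusted p = 0.00665). Within prefix E2, Tiparp was the 1 member called at 24 h, by 0.41 at 200 µM and 0.71 at 400 µM, and within batch 3 it was called at 0.52 and 0.83. Within batch 3, Ahrr (1.07, adjusted p = 0.0387) and Cyp1b1 (1.42, adjusted p = 0.0164) were called as well at 200 µM. That batch held 1 control of each prefix at 24 h.

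The response to HbHp 200 µM was not shown to differ between 24 and 48 h. The difference of the responses was 1.99 ± 0.64 for Cyp1a1 (adjusted p = 0.299), and 0.0121% of all genes were called; for Hb 200 µM, Cyp1a1 differed by 0.97 ± 0.61 and edgeR called 0 genes, with 118 at an unadjusted p under 0.05 and 0 called by DESeq2. Controls at 48 and 24 h differed by -0.40 ± 0.15 for Ahrr (adjusted p = 0.113) and by -0.68 ± 0.48 for Cyp1a1, in a comparison that called 4.5% of genes. Within batch 2 alone the Ahrr difference was -0.50 and called (adjusted p = 0.0414).

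**Figure D3:**
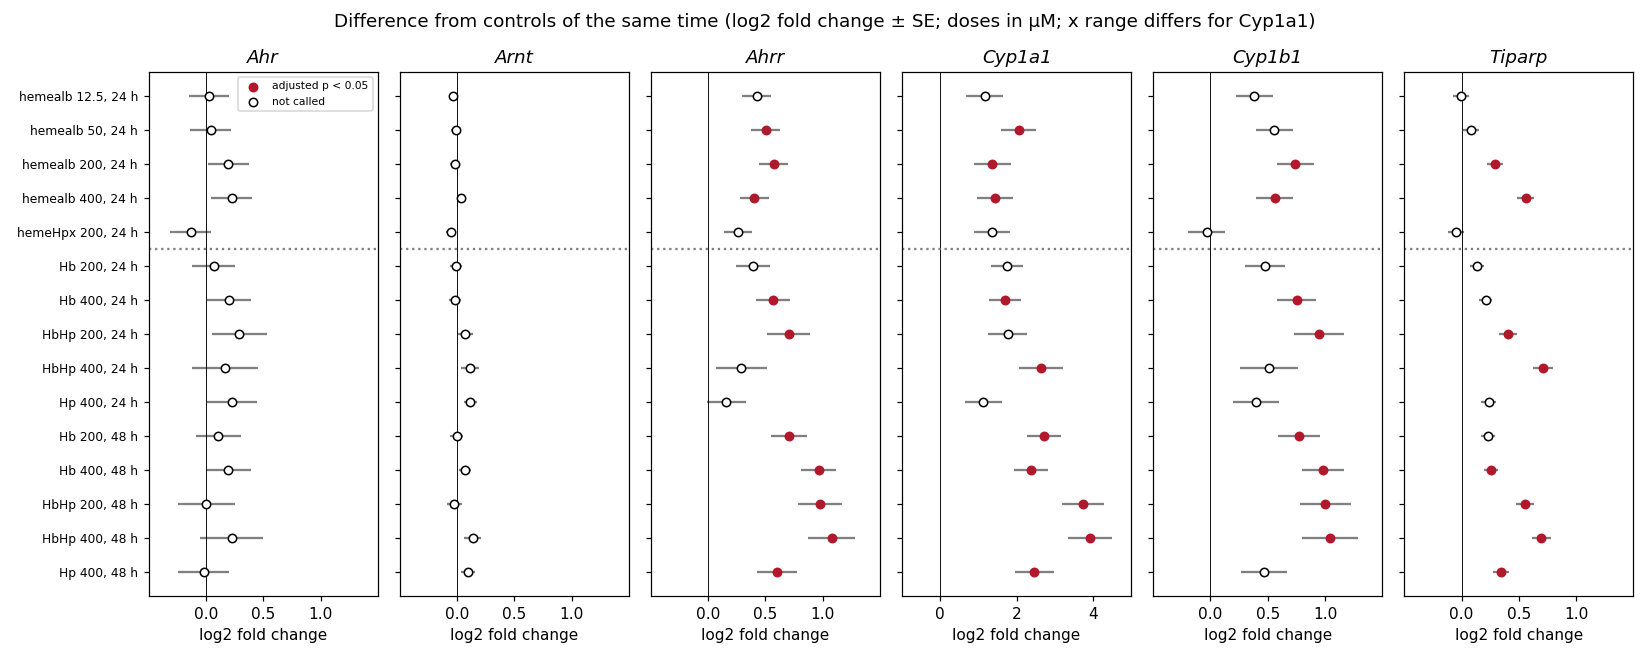
Log2 fold change ± SE of each gene against controls of the same time, for the 15 comparisons with control (y axis, doses in µM; a dotted line divides batch 1 from batches 2 and 3); filled points have an adjusted p under 0.05. Ahr and Arnt had no filled point, Cyp1a1 reached 3.92 with HbHp 400 µM at 48 h on its own wider axis, and Tiparp was filled in 8 comparisons.

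Between HbHp and Hb, Tiparp was called in 3 of 4 comparisons and no other member in any. HbHp exceeded Hb in Tiparp by 0.50 ± 0.09 at 400 µM and 24 h (adjusted p = 0.000291, 2.21% of genes called), by 0.33 ± 0.07 at 200 µM and 48 h (adjusted p = 0.00439, 4.98% called) and by 0.44 ± 0.08 at 400 µM and 48 h (adjusted p = 0.000352, 4.28% called). At 200 µM and 24 h it was 0.27 ± 0.08 (adjusted p = 0.057, 0.607% called). In CPM the means were 63.5 ± 6.78 (n = 8) against 59.96 ± 4.53 (n = 10) at 200 µM and 48 h, a smaller difference than the fitted one, which takes the prefix term into account. Within prefix E2 alone neither 48 h difference was called, at 0.31 for 200 µM (adjusted p = 0.144) and 0.36 for 400 µM (adjusted p = 0.0572). With neither prefix nor batch in the fit, Tiparp was called in none of the 4. It was then 0.28 at 400 µM and 24 h (adjusted p = 0.0734). At 48 h it was 0.08 for 200 µM and 0.20 for 400 µM (adjusted p = 0.497 and 0.13). With the batch term only, 0.38 at 400 µM and 24 h was called (adjusted p = 0.0287). The 48 h values of 0.18 and 0.30 were not (adjusted p = 0.172 and 0.0504). For Cyp1a1 at 48 h the intervals of HbHp minus Hb were wide, and neither difference was called. They ran from 0.12 to 1.94 at 200 µM and from 0.52 to 2.57 at 400 µM (adjusted p = 0.194 and 0.071). Without the Hp libraries these differences were 0.71 ± 0.38 and 1.16 ± 0.43 (adjusted p = 0.323 and 0.131). Within prefix E2 alone they were 0.17 ± 0.52 and 1.09 ± 0.55. At 24 h, without the Hp libraries, they were -0.53 ± 0.40 and 0.55 ± 0.46. For Cyp1b1 the 48 h intervals ran from -0.19 to 0.65 and from -0.40 to 0.52, and for Ahrr from -0.09 to 0.63 and from -0.28 to 0.51.

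The libraries labelled Hp 400 µM were the least uniform. As 1 group per time, they called no member at 24 h (0.704% of genes), and at 48 h (10.8%) Ahrr rose by 0.60 ± 0.17, Cyp1a1 by 2.46 ± 0.52 and Tiparp by 0.35 ± 0.07 (adjusted p = 0.0149, 0.00101 and 0.000681). Split by prefix, the 5 E1 libraries at 48 h were higher than control by 0.91 ± 0.18 in Ahrr, 3.28 ± 0.47 in Cyp1a1, 0.92 ± 0.21 in Cyp1b1 and 0.51 ± 0.08 in Tiparp, all 4 called (17% of genes), and the 6 E1 libraries at 24 h by 2.17 ± 0.46 in Cyp1a1, 0.71 ± 0.21 in Cyp1b1 and 0.32 ± 0.07 in Tiparp (1.77% of genes). No member was called for the E2 libraries at 24 h (0.0304% of genes) or 48 h (0.273%).

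The E1 and E2 libraries labelled Hp did not overlap in Ahrr, Cyp1a1 and Tiparp at either time, nor in Cyp1b1 at 48 h, where every E1 library lay above every E2 library for 8.47% of all genes at 24 h and for 8.05% at 48 h. Cyp1a1 counts were 20 to 54 in the 5 E1 and 0 to 12 in the 6 E2 libraries at 48 h, and 7 to 41 against 1 to 7 at 24 h. Tiparp was 67.9 to 73.6 CPM in E1 and 45.9 to 54.4 CPM in E2 libraries at 48 h, and Cyp1b1 323 to 490 CPM against 199 to 273 CPM. After the prefix term, the difference between them was 2.86 ± 0.54 for Cyp1a1 and 0.83 ± 0.19 for Ahrr at 24 h (adjusted p = 0.00157 and 0.0234, 0.34% of genes called). At 48 h it was 2.37 ± 0.51 for Cyp1a1, 1.08 ± 0.23 for Cyp1b1, 0.72 ± 0.20 for Ahrr and 0.34 ± 0.08 for Tiparp (3.74% called). No label gives a second property that divides these libraries. At 48 h the E1 libraries lay near HbHp 400 µM in the 4 targets and the E2 libraries near the controls, with Cyp1a1 at 0.91, and the part of a mixed-up label in the rises given for Hp was not tested.

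The comparison of HbHp with Hp alone at 400 µM depended on which of them were used. Against all of them, Tiparp was higher with HbHp by 0.47 ± 0.08 at 24 h (0.619% of genes called) and 0.35 ± 0.07 at 48 h (1.44%), and no other member was called. Against the E2 libraries, which share the prefix of the HbHp libraries, HbHp was higher at 48 h by 0.72 ± 0.18 in Ahrr, 2.46 ± 0.46 in Cyp1a1, 0.99 ± 0.21 in Cyp1b1 and 0.47 ± 0.07 in Tiparp, all called (3.2% of genes). At 24 h it was higher by 2.95 ± 0.53 in Cyp1a1 and 0.53 ± 0.08 in Tiparp (1.09%). Against the E1 libraries no member was called at either time, where 0.00607% and 0.0546% of all genes were: the Cyp1a1 differences were 0.09 with intervals from -0.92 to 1.10 at 24 h and from -0.88 to 1.06 at 48 h.

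**Figure D4:**
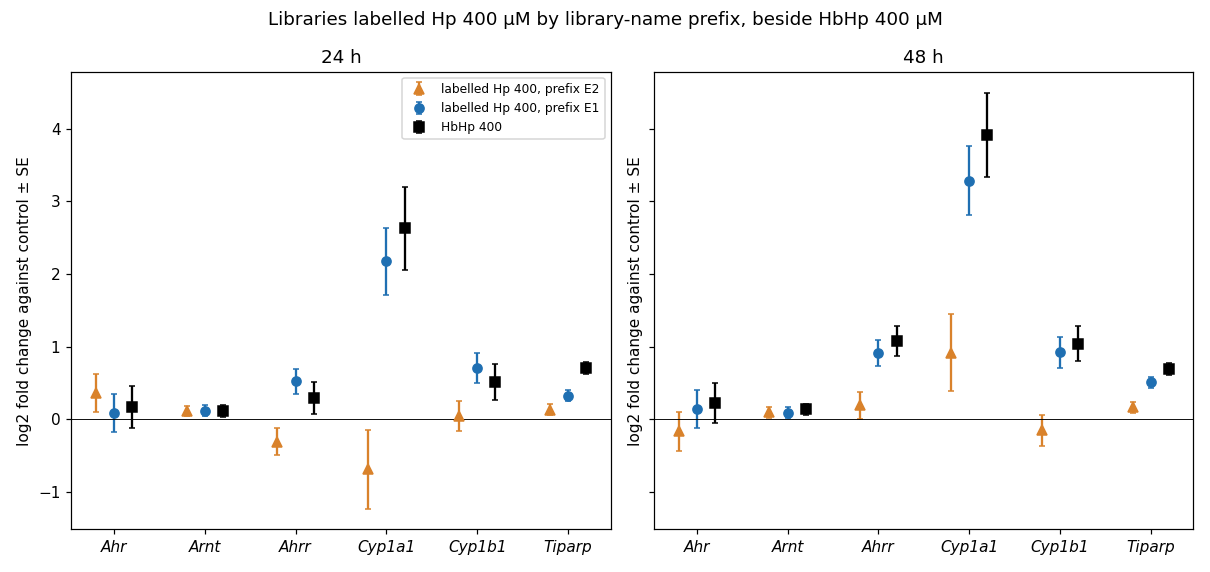
Log2 fold change ± SE against control for the 6 genes (x axis) at 24 h (left) and 48 h (right) in the libraries labelled Hp 400 µM with prefix E1 (circles) and E2 (triangles), beside HbHp 400 µM (squares). At 48 h the E1 libraries lay beside HbHp in all 4 targets, while the E2 libraries lay near 0 except for Cyp1a1 at 0.91.

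Within groups, Ahr varied together with Cyp1b1 and, more weakly, with Tiparp and Ahrr, and in the opposite direction to Cyp1a1. After the mean of each group (and prefix) was taken off the log2 CPM, Ahr and Cyp1b1 varied together, with Pearson's r = 0.85 and Spearman's rho = 0.87 over the 60 libraries of batch 1 and 0.84 and 0.83 over the labelled libraries of batches 2 and 3. Without the 2 libraries farthest from the median of Ahr, r was 0.83 and 0.82, and it was 0.84 within batch 2 and within batch 3. In permutations within groups all 4 reached 1e-05, the smallest p that 100000 resamples can give (adjusted over 10 relations, 1.7e-05). These 10 relations were part of a larger set that was computed, with microglia as the only marker list among them. The adjustment here and below does not cover the rest of that set. The permutations also treated libraries as independent, although most lay closer to libraries sharing their name code. The permutation p-values may therefore be too small, and r and rho are best read as descriptions. Ahr and Cyp1a1 varied in opposite directions, with r = -0.38 and rho = -0.33 in batch 1 (permutation p = 0.0093 and 0.013, adjusted 0.012 and 0.014) and r = -0.46 and rho = -0.39 in batches 2 and 3 (permutation p = 1e-05 and 8e-05, adjusted 1.7e-05 and 0.00011). Without the 2 farthest libraries r was -0.32 and -0.36, and within batches 2 and 3 it was -0.36 and -0.52. The low counts of Cyp1a1 limit these values. Described without a test, Ahr had r of 0.44 with Tiparp and 0.15 with Ahrr in batch 1. In batches 2 and 3 these were 0.36 and 0.38. Libraries with more Cyp1b1 had lower microglia marker sums, with r and rho of -0.87 in batch 1 (-0.86 without the 2 farthest libraries) and r = -0.42 and rho = -0.50 in batches 2 and 3 (-0.49 without the 2 farthest, -0.41 in batch 2 and -0.48 in batch 3). The permutation p was 1e-05 in batch 1 and 0.0001 for r in batches 2 and 3 (adjusted 1.7e-05 and 0.00014). Ahrr and the microglia sum had r = -0.60 and rho = -0.63 in batches 2 and 3 (permutation p = 1e-05, adjusted 1.7e-05; r = -0.57 without the 2 farthest, -0.71 in batch 2 and -0.53 in batch 3), and r = -0.27 and rho = -0.24 in batch 1 (permutation p = 0.07 and 0.075, adjusted 0.078 and 0.075). Ahr and the microglia sum had r = -0.75 and rho = -0.78 in batch 1 (permutation p = 1e-05, adjusted 1.7e-05; r = -0.75 without the 2 farthest), and r = -0.21 and rho = -0.34 in batches 2 and 3 (permutation p = 0.08 and 0.0015, adjusted 0.08 and 0.0019; r = -0.33 without the 2 farthest, -0.31 in batch 2 and -0.14 in batch 3). Microglia were not alone in this: described without a test, the sums of oligodendrocyte, mural cell and fibroblast markers in batch 1 had r of -0.77, -0.71 and -0.69 with Ahr and of -0.72, -0.78 and -0.70 with Cyp1b1. Those of endothelial cells had -0.60 and -0.64. Astrocyte sums went the other way, with r of 0.45 with Ahr and 0.26 with Cyp1b1 in batch 1. In batches 2 and 3 these were 0.72 and 0.52. Neuron sums had 0.25 and 0.35 in batch 1 and -0.04 and 0.02 in batches 2 and 3. With Cyp1a1, astrocyte sums had -0.50 in batch 1 and -0.42 in batches 2 and 3. These values describe libraries that share depth, slicing and tissue content.

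**Figure D5:**
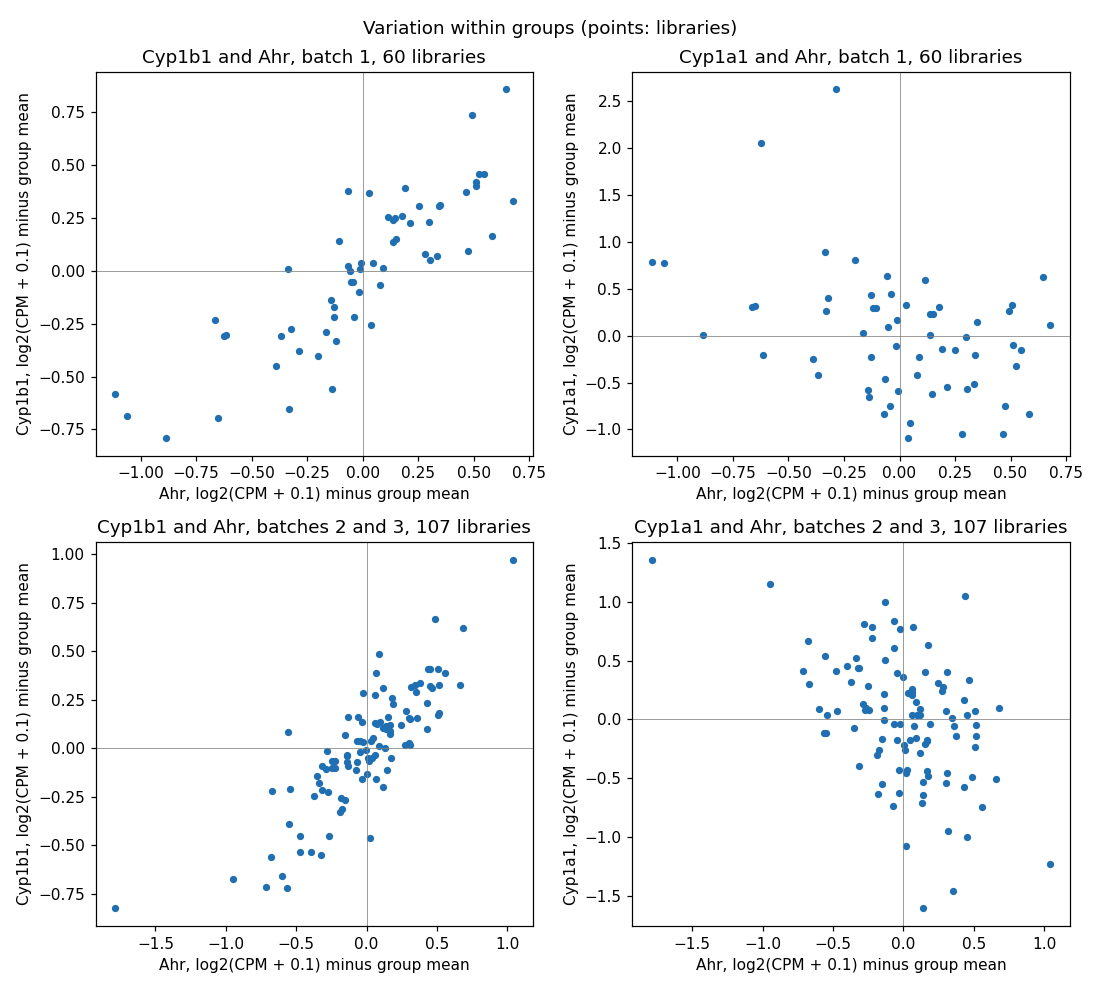
Cyp1b1 (left) and Cyp1a1 (right) against Ahr, each as log2(CPM + 0.1) minus the mean of its group and prefix, in the 60 libraries of batch 1 (top) and the labelled ones of batches 2 and 3 (bottom); points are libraries. Pearson's r was 0.85 and 0.84 for Cyp1b1 and -0.38 and -0.46 for Cyp1a1.

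The genes whose levels most resembled each member over the libraries of batch 1 were ranked among 13886 genes by Pearson's r of log2 CPM, a description without a test. For Ahr these were Adgrg6 (r = 0.89), Pvr (0.89) and Lrp2 (0.88), which had r of 0.69, 0.48 and 0.69 in batches 2 and 3. Those for Tiparp were Xpot (0.92), Chd2 (0.91) and Hspa9 (0.90), and for Cyp1b1 Sf3b3 (0.87), Wdr77 (0.85) and Ppp4r1 (0.85), and these 6 kept at most 0.38 in batches 2 and 3. For Ahrr they were Tgm1 (0.62), Sod2 (0.62) and Relb (0.60), for Cyp1a1 Taldo1 (0.64), Eef1a2 (0.61) and Gabarapl1 (0.61), and for Arnt Atf7 (0.71), Golgb1 (0.70) and Ino80d (0.69).

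Among 10 other genes of the AhR battery, of which 6 were tested in batch 1 and 8 in batches 2 and 3, Nqo1 was the steadiest caller. With heme-albumin 400 µM, 3 of 6 rose and 1 fell, where 14.7% of all genes rose and 14.3% fell: Nqo1 rose by 1.12 ± 0.08 (adjusted p = 1.67e-16) and Slc7a5, an amino acid transporter, by 0.68 ± 0.07 (adjusted p = 1.21e-10), while Xdh, xanthine dehydrogenase, fell by 0.73 (adjusted p = 0.00535). The median over the 6 was 0.11, where that over all genes was -0.01. With HbHp 400 µM at 48 h, 2 of 8 rose, where 7.39% of all genes did: Nqo1 and Ugt1a6a, a glucuronosyltransferase (0.50 ± 0.15, adjusted p = 0.0168), and the median was 0.47 against 0.00 for all genes. Nqo1 is also a target of the oxidative stress factor NRF2, and Cyp1a2, the other P450 gene of this family, stayed below the filter in all batches.

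Of 5 tested bHLH-PAS relatives, the family of AhR and ARNT, Epas1 fell by 0.75 (adjusted p = 3.72e-07) and Arnt2, the neuronal ARNT paralog, rose by 0.23 ± 0.04 (adjusted p = 5.23e-05) with heme-albumin 400 µM (29% of all genes called). Hif1a fell by 0.29 with hemeHpx (adjusted p = 0.0381, 8.2% of all genes called). Of the chaperones that hold the receptor in the cytosol, Ptges3 (p23) rose by 0.27 ± 0.06 with heme-albumin 400 µM (29% called). Hsp90ab1 fell by 0.23 in the libraries labelled Hp at 48 h (10.8% called). Of the 11 genes of the kynurenine pathway, which makes AhR ligands from tryptophan, 6 were tested in batch 1 and 8 in batches 2 and 3. Among these, Kyat3 was the 1 gene called against control (-0.34 ± 0.08 with heme-albumin 400 µM, adjusted p = 0.000971, where 29% of all genes were called). Without the Hp libraries in the fit, Kynu, kynureninase, was called with Hb 400 µM at 48 h (1.04, adjusted p = 0.0426). Ido1, Kmo and Haao stayed below the filter throughout, and Ido2 and Kynu in batch 1. Of 4 heme breakdown genes, Hmox1, heme oxygenase, rose by 1.77 ± 0.19 and Blvrb, a biliverdin reductase, by 1.30 ± 0.12 with heme-albumin 400 µM, where 14.7% of all genes were called higher.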

How the data were processed

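RNA was extracted from slices with the SPLIT kit and sequenced as TruSeq mRNA libraries. The authors deposited 1 table of raw read counts per gene for each library, and the submitters' processing notes name featureCounts and GRCm39; versions, aligner, annotation and strand setting are not given in the sources used here. Counts of batch 1 (60 libraries) and of batches 2 and 3 (labelled libraries) were fitted apart, as batch 1 has its own controls.

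Genes were filtered with filterByExpr (minimum count 10, minimum total 15), scaled by TMM and tested with edgeR 4.0.16 (quasi-likelihood F test, R 4.3.3), without covariates in batch 1 and with batch and library-name prefix as terms in batches 2 and 3. The SE is the log2 fold change over the square root of F, and 95% intervals are 1.96 SE on either side. DESeq2 1.42.0, which the study used, was an alternative, as were RLE scaling, no filter, other terms, subsets of libraries and leaving out single libraries. On simulated counts with known changes, the fit called 90.8% of genes changed by a log2 value of 1 for heme-albumin 200 µM against control and 88.1% for HbHp 200 µM at 48 h. At a log2 value of 0.5 it called 63.7% and 55.8%. The simulated counts held no difference between prefixes or batches.

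Library totals had a median of 22054776 counts in batch 1 and set the precision of Cyp1a1, which is given as counts. No 2 libraries of a group agreed within sampling noise (630 pairs). The 6 members and the gene lists were chosen with earlier results of these data known, so no p was adjusted over a list alone. All 6 members are named, with, per list, up to 4 genes with the lowest adjusted p against control, and per member the 3 genes with the highest r in batch 1. A gene of these lists is not reported here. Promoter windows come from RefSeq (GRCm38.p6), exon lengths from GENCODE M21, both an older build than the counts, and 5 of the 6 members had a promoter entry. The labels left 21 libraries without a group: 20 have labels that conflict, with a title naming hemoglobin-haptoglobin at 400 µM but HbHpx in the treatment tag and HbHpx or Hpx in the library name, and 1 control has labels that disagree on its time. They entered no test.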

Additional observations from a re-analysis of the deposited data

Results flagged for a closer look

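Single libraries lay far from the rest of their group by Dixon's test in 10 of 96 pairs of group and member, where chance flags about 1 in 20. Cyp1a1 gave 5 of them: control replicate 5 of batch 1 at 1.17 CPM (next 0.158), heme-albumin 50 µM replicate 2 at 2.40 CPM (next 0.934), Hb 200 µM replicate 10 at 24 h at 1.69 CPM (next 0.765), Hb 200 µM replicate 8 at 48 h at 1.76 CPM (next 0.947) and Hb 400 µM replicate 3 at 24 h at 1.32 CPM (next 0.678). Ahr gave 3: the highest values were 31.1 CPM in HbHp 400 µM replicate 2 at 48 h (next 15.8) and 52.3 CPM in heme-albumin 400 µM replicate 9 (next 38.1), and the lowest was 3.66 CPM in Hb 200 µM replicate 10 at 24 h (next 13.2). That Hb library thus had the lowest Ahr and the highest Cyp1a1 of its group. Ahrr was 6.05 CPM in HbHp 400 µM replicate 4 at 24 h (next 3.57), and Tiparp was 76.3 CPM in Hb 400 µM replicate 3 at 48 h (next 62.97).

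The libraries labelled Hp 400 µM differed between prefixes E1 and E2 beyond the prefix term, by the test of that difference. At 24 h the log2 difference was 0.83 for Ahrr and 2.86 for Cyp1a1. At 48 h it was 0.72 for Ahrr, 2.37 for Cyp1a1, 1.08 for Cyp1b1 and 0.34 for Tiparp.

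Libraries outside the comparisons also carried high levels. In the libraries tagged HbHpx at 400 µM, whose titles and tags conflict and which were put in no group, the median CPM by total count was above the highest control for several members. At 24 h it was 24.7 for Ahr (highest control 18.4), 65.5 for Arnt (58.7), 8.19 for Ahrr (4.35), 1.27 for Cyp1a1 (0.311) and 88.8 for Tiparp (58.01). At 48 h it was 7.66 for Ahrr (4.00), 1.08 for Cyp1a1 (0.236), 379.9 for Cyp1b1 (290.0) and 85 for Tiparp (64.2).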

How the results depend on the processing

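Of the 44 called values of members, recomputed 409 times under the alternatives, 342 kept the call, 67 lost it and 0 changed direction; of 1093 recomputed values that were not called, 82 changed sign and 24 became called. The number of members called was within 1.5 times the reported one except as follows, and the causes were not tested. Heme-albumin 50 µM against control fell from 2 members to 1 without a filter, and to between 0 and 1 when control replicate 5 or heme-albumin 50 µM replicate 2 was left out. HemeHpx against control rose from 0 to 1 (Cyp1a1) with the replicate block and without control replicate 5. At 24 h, Hb 200 µM rose from 0 to 1 (Cyp1a1) in the fit of 55 libraries, in batch 2 alone and without the Hp libraries; Hb 400 µM fell from 3 to 1 in batch 2 alone and to 0 in batch 3 alone and in prefix E2 alone. HbHp 200 µM fell from 3 to 1 in the 55 libraries, with the batch term only and in prefix E2 alone. With neither term it kept 3, with Cyp1a1 (1.48, adjusted p = 0.0275) in place of Tiparp (0.16, adjusted p = 0.211). HbHp 400 µM fell from 2 to 1 in batch 3 alone and in prefix E2 alone, and Hp 400 µM rose from 0 to 1 (Tiparp) with DESeq2 and with the replicate block. At 48 h, in batch 3 alone and in prefix E2 alone, Hb 200 µM fell from 3 to 0 and 1, Hb 400 µM from 4 to 0 and 2, and Hp 400 µM from 3 to 0 and 0. Controls at 48 h against 24 h rose from 0 to 1 (Ahrr) in batch 2 alone. For HbHp 200 µM against Hb 200 µM, 0 became 1 at 24 h in the 55 libraries (Cyp1b1) and with DESeq2 (Tiparp), and at 48 h the 1 member, Tiparp, became 0 in the 55 libraries, in batch 3 alone, with the batch term only, with neither term and in prefix E2 alone. For HbHp 400 µM against Hb 400 µM, 1 became 0 with neither term at 24 h, and at 48 h 0 with the batch term only and in prefix E2 alone and between 1 and 2 when single HbHp libraries were left out, with 2 without replicate 2 (Cyp1a1 added). With neither term at 48 h, the 1 member called was Cyp1a1 (1.25, adjusted p = 0.0421) in place of Tiparp (0.20, adjusted p = 0.13). For HbHp 400 µM against Hp 400 µM, 1 became 0 at both times with the batch term only and with neither term, 2 at 24 h in batch 3 alone and in prefix E2 alone, and 3 and 4 at 48 h in these. The replicate block, on the library-name codes that groups share, kept 43 of the 44 calls, lost Ahrr with Hb 400 µM at 24 h (0.54, adjusted p = 0.0543) and added 4; the labels do not explain the codes, which were not taken as pairs: the mean correlation of deviations was 0.13 in batch 1 and 0.06 in batches 2 and 3, with single pairs down to -0.66 and -0.65, although 50 of the 60 libraries of batch 1 and 83 of those of batches 2 and 3 lay closer to their own code than to others, a hint from the data and not from the design. The fits without the Hp libraries, with these split by prefix, in batch 2 alone, and without the 2 batch 1 libraries named above were chosen after the data were seen. Low counts limit Cyp1a1, and the small HbHp 400 µM groups leave wide intervals.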

Other observations

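The 20 libraries tagged HbHpx at 400 µM, whose titles name hemoglobin-haptoglobin, were not compared with a group, and their values are given as ranges of CPM by total count. Tiparp ranged from 77.5 to 105.2 CPM in the 10 libraries at 24 h and from 73.2 to 99.6 CPM in the 10 at 48 h, and all 20 lay above the highest control of their time. Such a separation was met by 2.02% of 16473 genes at 24 h and by 2.98% at 48 h. Cyp1a1 ranged from 0.743 to 1.98 CPM at 24 h and from 0.52 to 1.97 CPM at 48 h, again with all 20 above the highest control. Ahrr ranged from 5.38 to 13.8 CPM at 24 h and from 3.11 to 13.3 CPM at 48 h, with 10 and 9 libraries above it. Ahr ranged from 16.8 to 37.9 CPM at 24 h, with 8 of 10 above the highest control, and from 13.3 to 30.8 CPM at 48 h, with 4 of 10. By prefix, Ahrr had a median of 10.6 CPM in the 7 E1 and of 5.99 CPM in the 3 E2 libraries at 24 h. The 1 control with an open time held 11.7 CPM of Ahr, 2.92 CPM of Ahrr, 0.121 CPM of Cyp1a1 and 43.2 CPM of Tiparp.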
